A study of Arabidopsis thaliana with 6 samples.

Results

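Described here are transcripts that read low in wild-type Arabidopsis thaliana seedlings and higher in seedlings overexpressing either of 2 rice topoisomerase VI subunits. The unit is the Affymetrix probe set, a group of short oligonucleotides whose combined brightness gives 1 intensity per array. Members were picked from these same intensities after each array was scaled linearly to a median of 80. A member had both wild-type values under 60, all 4 overexpressor values over 100, and its lowest overexpressor value at least 2.5 times its highest wild-type value. Of 22746 probe sets 57 met these limits. The 5 for ZW9, AT1G65370, M17, CYP71B34 and AT3G44630 were set aside by name, together with any for AT5G40910, AT5G36930 or expansin A genes, which left 52 members, 0.229% of the array. The difference from wild type is therefore how the members were chosen, and it is described without a test.

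Total RNA came from whole light-grown seedlings aged 10 days, with 2 arrays for each of 3 groups. The groups were wild type, transgenic seedlings carrying the cDNA of rice OsTOP6A3, and transgenic seedlings carrying that of rice OsTOP6B. All were grown under continuous light on MS agar with sucrose, and no further treatment is named. Columbia is the labelled ecotype of 5 arrays, and for wild-type replicate 1 none is labelled. Each overexpressor appears under 1 line name only, and no group here carries an empty vector. The promoter driving the transgenes is not given in the sources used here. Subunit, transgenic line and the mere presence of a transgene cannot be told apart. The series text calls the replicates biological without saying how they were separated, so the p-values measure the spread between these arrays.

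Topoisomerase VI is an enzyme of A and B subunits that cuts both strands of a DNA duplex, passes another duplex through the gap and reseals it. In Arabidopsis the native complex is needed for endoreduplication, the repeated DNA replication without division that lets plant cells grow large. Many plant genes are transcribed only in certain cells, organs or stress conditions, and others are kept silent by chromatin marks, and such genes read near background in most RNA samples. In RNA from whole seedlings, fewer cells expressing a transcript and less transcript per cell cannot be told apart.

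Across arrays, median deposited intensities ran from 66.2 to 103.5. Over all probe sets, which are no replicates of each other, same-group arrays correlated at 0.988 in wild type, 0.991 with OsTOP6A3 and 0.985 with OsTOP6B, and the last pair correlated less than OsTOP6B replicate 1 did with either OsTOP6A3 array, at 0.990 each. The tissue label was checked against 6 measured genes of green tissue, all bright on every array. Their summed intensity was 29612 and 32133 in wild type, 27403 and 28308 with OsTOP6A3, and 21084 and 28851 with OsTOP6B. The sum hides opposite moves. PSAN, LHCB4.1, SBPASE and PRK were lower than wild type on every overexpressor array, and RCA was mixed. LHCB4.2 alone was higher on each, at 1654 and 1770 in wild type, 2956 and 2874 with OsTOP6A3, and 2312 and 3427 with OsTOP6B. Summed over 3 root genes, intensity was 6431 and 7268 in wild type, 7168 and 7771 with OsTOP6A3, and 6707 and 6585 with OsTOP6B, most of it from PYK10, a root beta-glucosidase gene. The root hair expansin gene EXPA7, which met both level limits, missed the ratio and was in any case set aside by name, read 56.9 and 42.96 in wild type, 156 and 125 with OsTOP6A3, and 193 and 215 with OsTOP6B. EXPA18, of the same kind, read 96.1 and 107 in wild type, 116 and 114 with OsTOP6A3, and 164 and 226 with OsTOP6B. The part of root hair transcripts in the members' levels was not tested. Of 6 seed genes only M17, a transcript of the late embryogenesis abundant type that was set aside above, was measured, and it read 10.4 and 8.03 in wild type, 245 and 295 with OsTOP6A3, and 222 and 462 with OsTOP6B. It met the same limits as the members, and the part of seed-type transcripts in the members' levels was not tested. The 1 measured flower and pollen gene lay at or under 3.38 throughout.

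**Figure D1:**
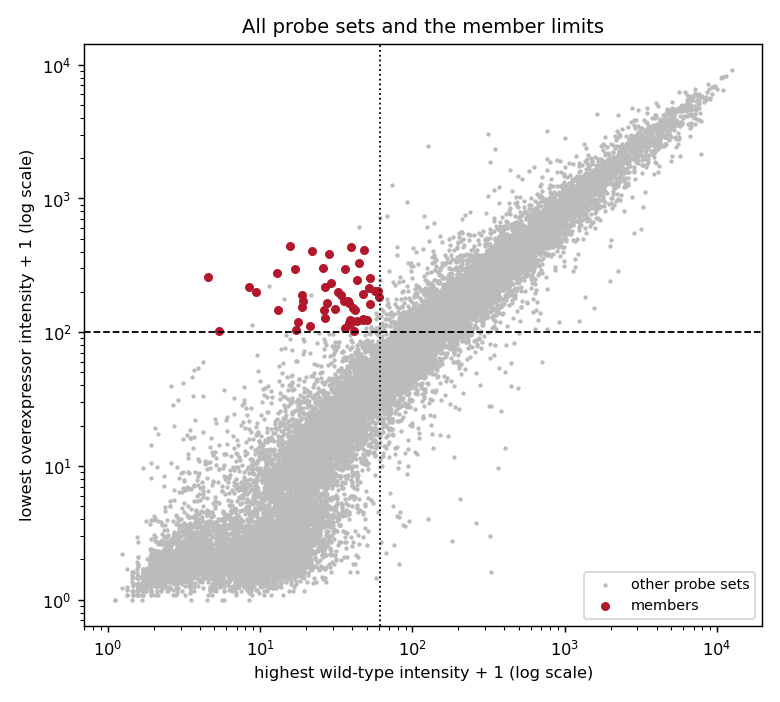
Each point is 1 of 22746 probe sets, with the highest wild-type intensity plus 1 on the x axis and the lowest overexpressor intensity plus 1 on the y axis, both on log scales after setting each array's median to 80. The dotted and dashed lines mark the limits of 60 and 100, and the 52 members in red lie in the upper left corner away from the bulk of points.

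The plot of all probe sets shows how few these transcripts were. In wild type 9769 probe sets, or 42.9%, had both values under 60, and the members made up 0.532% of them. The name "silent in wild type" fits some members better than others. Both wild-type values were under 10 in 4 members and under 20 in 13, whereas in 16 the higher one was between 40 and 60. Over the members the wild-type mean ran from 2.47 to 58.6 with a median of 30.5, which placed the median member at the 34.1 percentile of all probe sets. With OsTOP6A3 the mean ran from 108 to 654, median 208, and with OsTOP6B from 109 to 527, median 208. Over the 4 overexpressor arrays the median member stood at the 70.6 percentile, so most members reached a moderate level and not a high one.

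The lowest overexpressor value was 5.75 times the highest wild-type value in the median member. This ratio was at least 5 in 28 members, at least 10 in 13 and at least 20 in 6. Within wild type the 2 arrays differed 1.24-fold in the median member and up to 13.5-fold, in 262319_s_at. Within the 4 overexpressor arrays the highest was 1.33 times the lowest in the median member, under 1.5 times in 37 and over 2 times in 1. No overexpressor array was the lowest of the 4 in most members. OsTOP6B replicate 2 was the highest of the 4 in 18 members and the lowest in 15, and OsTOP6A3 replicate 1 the highest in 7 and the lowest in 14.

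Exactly 1 gene was named for 24 members, several for 5 and none for 23. A share of 53.8% therefore had no single gene, against 40.6% of all probe sets. Of the 24 named genes 21 carried only a locus code as their symbol, 87.5%, close to the 88.3% over the array. They lay on all 5 nuclear chromosomes. Chromosome 1 held 7, chromosome 2 held 5, chromosome 3 held 3, chromosome 4 held 2 and chromosome 5 held 7. In that order these were 29.2%, 20.8%, 12.5%, 8.33% and 29.2% of the named members. Over all probe sets with 1 gene and a known chromosome, the shares were 25.7%, 16.4%, 20.4%, 14.6% and 22.4%.

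**Figure D2:**
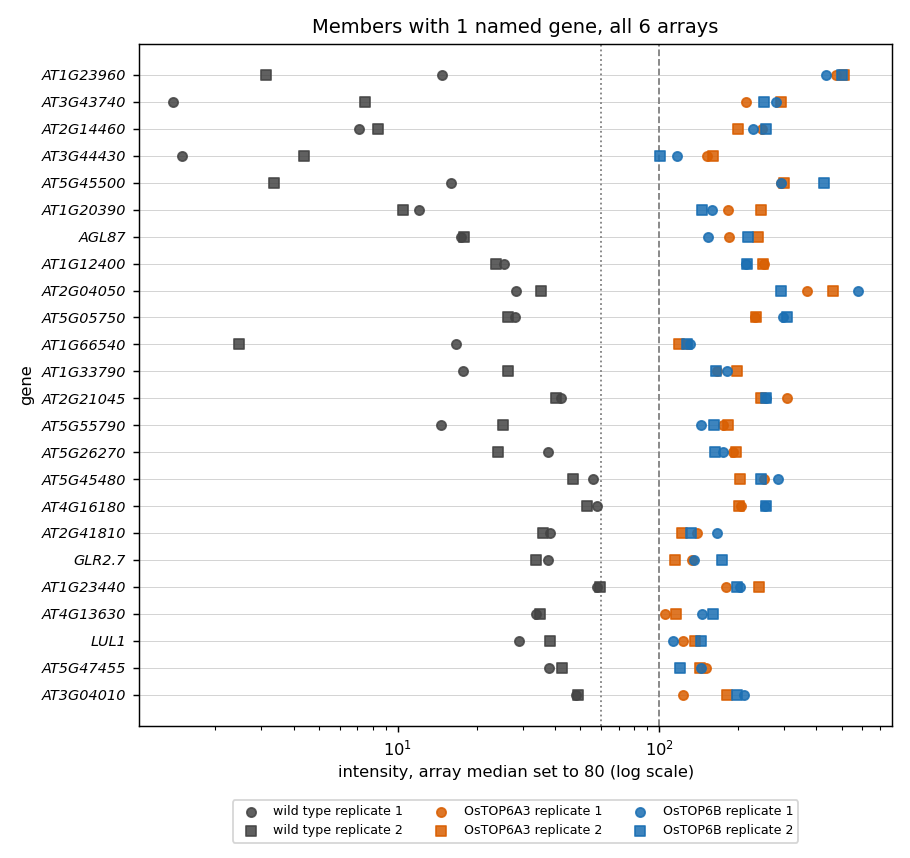
Intensities of the 24 members with 1 named gene, on a log x axis after setting each array's median to 80, with circles for replicate 1 and squares for replicate 2 of wild type (grey), OsTOP6A3 (orange) and OsTOP6B (blue). Genes are ordered by the ratio of the lowest overexpressor to the highest wild-type value, largest at the top, and the dotted and dashed lines mark 60 and 100. The overexpressor points lie close together in each row while the wild-type points spread most where they are near 0.

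AT3G43740 encodes a protein of the leucine-rich repeat family, whose repeats serve protein binding in many plant receptors. Its intensity was 1.38 and 7.48 in wild type, 215 and 292 with OsTOP6A3, and 281 and 252 with OsTOP6B. AT5G45500, which encodes a protein with ribonuclease inhibitor-like repeats of the same broad type, read 15.95 and 3.35 in wild type, 294 and 301 with OsTOP6A3, and 294 and 427 with OsTOP6B. In both genes the wild-type arrays were near the floor and every overexpressor array lay over 200, with OsTOP6B replicate 2 of AT5G45500 standing above the other three.

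AT5G45480, a member of the DUF594 family of unknown function, lies 2 places from AT5G45500 in the gene order of chromosome 5. It read 56.01 and 46.9 in wild type, 251 and 204 with OsTOP6A3, and 285 and 246 with OsTOP6B, so wild type was not near 0 here. A probe set listed for 2 genes, 248943_s_at, lies 1 place from AT5G45480 by 1 of them and 8 places by the other. It read 46.03 and 18.5 in wild type, 191 and 259 with OsTOP6A3, and 245 and 221 with OsTOP6B. Among members with a place in the gene order, these 3 probe sets stood closest. The closest other pair of members with 1 gene, AT1G23440 and AT1G23960, were 58 places apart. The other members listed for several genes had no gene nearer than 46 places to a member with 1 gene. For the 23 members without a gene no place was known, so their closeness to other members could not be seen. The probe sets of neighbouring related genes can share sequence, and how far they shared signal was not tested.

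AT1G23960, a DUF626 gene of unknown function, had the largest ratio among members with 1 gene, 29.5. Its intensity was 14.8 and 3.12 in wild type, 476 and 512 with OsTOP6A3, and 437 and 503 with OsTOP6B. All 4 overexpressor arrays agreed to within a small fraction of their level, and wild-type replicate 2 was lower than replicate 1. AT2G14460, which has no described function, read 7.12 and 8.37 in wild type, 248 and 199.7 with OsTOP6A3, and 229 and 256 with OsTOP6B, with a ratio of 23.9. AT3G44430 read 1.49 and 4.35 in wild type, 152 and 160.4 with OsTOP6A3, and 117 and 101 with OsTOP6B, and here OsTOP6A3 arrays were both higher than OsTOP6B arrays. AT1G20390, annotated as a pseudogene, read 12.1 and 10.5 in wild type, 184 and 245 with OsTOP6A3, and 159 and 146 with OsTOP6B. In the pseudogene probe set, too, both OsTOP6A3 arrays lay above both OsTOP6B arrays.

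Some members are annotated with roles in the nucleus or in protein handling, though no such activity was measured here. AT1G12400 encodes a small TTDA-type subunit of TFIIH, the complex that opens DNA in transcription and nucleotide excision repair. It read 25.5 and 23.7 in wild type, 252 and 250.2 with OsTOP6A3, and 215 and 217 with OsTOP6B. AGL87, a MADS-box transcription factor gene, read 17.4 and 17.9 in wild type, 186 and 239 with OsTOP6A3, and 155 and 219.8 with OsTOP6B. In these 2 genes wild type was low on both arrays and the overexpressor arrays ran together near 200.

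AT5G05750 encodes a protein with a DnaJ domain, the part by which co-chaperones engage Hsp70. It read 28.01 and 26.3 in wild type, 232 and 234 with OsTOP6A3, and 298 and 309.6 with OsTOP6B, with both OsTOP6B arrays above both OsTOP6A3 arrays. LUL1, a RING-type ubiquitin ligase gene related to LOG2, was a weaker member with a highest wild-type value of 38.2 and a lowest overexpressor value of 113.

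Transport genes were represented by AT2G04050 and GLR2.7. AT2G04050 encodes an efflux carrier of the MATE family, which export small organic molecules from the cytosol. It read 28.4 and 35.3 in wild type, 368 and 463 with OsTOP6A3, and 579 and 294 with OsTOP6B. OsTOP6B replicates 1 and 2 were the highest and the lowest of the overexpressor arrays, so this gene varied more within a line than between lines. GLR2.7, a glutamate receptor-like cation channel gene, read 37.4 and 33.7 in wild type, 133 and 115 with OsTOP6A3, and 136 and 174 with OsTOP6B. Of the other 6 MATE genes of the chromosome 2 cluster listed for comparison, AT2G04070 was measured by a probe set of its own. It read 23.9 and 20.98 in wild type, 20.2 and 50.3 with OsTOP6A3, and 55.8 and 45.2 with OsTOP6B, and its log2 changes from wild type of 0.35 ± 0.26 and 0.79 ± 0.26 gave limma adjusted p of 0.44 with OsTOP6A3 and 0.0823 with OsTOP6B, with 5.52% and 7.91% of all tested probe sets called higher.

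Among enzyme genes, AT2G21045 encodes an arsenate reductase of the rhodanese type, which limits arsenic build-up in the plant. It read 42.2 and 40.4 in wild type, 309 and 246 with OsTOP6A3, and 257 and 257 with OsTOP6B, a step between close wild-type and close overexpressor values. AT1G66540, a cytochrome P450 gene, read 16.6 and 2.45 in wild type, 128 and 119 with OsTOP6A3, and 131 and 128 with OsTOP6B. AT3G04010, a glycosyl hydrolase of family 17, which holds beta-1,3-glucanases, read 47.9 and 48.98 in wild type, 123 and 182 with OsTOP6A3, and 211 and 198 with OsTOP6B, and it stood closest to the ratio limit of all members with 1 gene. AT1G23440, of the pyroglutamyl peptidase type, had wild-type values just under the limit, 59.6 at most, and a lowest overexpressor value of 181.

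AT1G33790 encodes a jacalin-type lectin. It read 17.7 and 26.4 in wild type, 167 and 199 with OsTOP6A3, and 182 and 166 with OsTOP6B. AT2G41810, a DUF642 gene of the cell wall protein type, had a highest wild-type value of 38.1 and a lowest overexpressor value of 122. In both genes the lowest overexpressor array was over 3 times the highest wild-type array.

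The remaining members with 1 gene have no role given here. AT5G55790 and AT5G26270 had ratios of 5.76 and 4.36, and AT5G47455 one of 2.83. AT4G13630 read 33.9 and 35.03 in wild type, 106 and 116 with OsTOP6A3, and 147 and 161 with OsTOP6B. AT4G16180 read 57.96 and 52.8 in wild type, 206 and 202 with OsTOP6A3, and 255 and 258 with OsTOP6B. For both of the latter genes the OsTOP6B arrays lay above the OsTOP6A3 arrays.

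A further probe set was on the array for 2 of the members' genes, and neither showed the gene as silent in wild type. The other probe set of AT4G16180 read 175 and 181 in wild type, 331 and 255 with OsTOP6A3, and 338 and 341 with OsTOP6B. It was bright in wild type and higher in all overexpressor arrays, by a smaller step than the member. The other probe set of AT1G23440 read 189.6 and 483 in wild type, 439.7 and 469 with OsTOP6A3, and 404 and 416 with OsTOP6B, where wild-type replicate 2 was as high as the overexpressors. For these 2 genes the label therefore holds for 1 probe set and not for the gene, and for the other 22 named genes no second probe set with 1 gene was found.

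The member with the largest ratio of all, 71.9, had no gene named. This probe set, 253894_at, read 1.38 and 3.57 in wild type, 391 and 268 with OsTOP6A3, and 319 and 257 with OsTOP6B. Likewise without a gene, 245448_at read 11.8 and 7.59 in wild type, 276 and 289 with OsTOP6A3, and 369 and 357 with OsTOP6B, and 252170_at read 20.9 and 14.2 in wild type, 459 and 403 with OsTOP6A3, and 483 and 571 with OsTOP6B. These 3 showed steps as wide as those of the leading named genes. Next in order without a gene stood 249752_at, which read 17.8 and 9.04 in wild type, 220.3 and 227 with OsTOP6A3, and 216 and 189 with OsTOP6B, and 265974_at, which read 18.02 and 3.91 in wild type, 252 and 263 with OsTOP6A3, and 253 and 171 with OsTOP6B. The last of the 16 largest ratios belonged to 254476_at, which read 47.3 and 35.8 in wild type, 408 and 444 with OsTOP6A3, and 447 and 493 with OsTOP6B. Wild type was clearly above 0 in that probe set, so its ratio of 8.64 rested on a high overexpressor level. The 16 members without a gene that are not given singly had ratios from 2.51 to 7.42, wild-type values from 6.03 to 51.7 and overexpressor values from 100.4 to 424. Among them 245451_at was the 1 member whose overexpressor arrays differed over 2-fold, and it read 28.9 and 31.4 in wild type, 369 and 424 with OsTOP6A3, and 397 and 198 with OsTOP6B.

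Probe sets listed for several genes can sum the transcripts of related copies, and their signal cannot be assigned to a single gene. The one listed for 8 genes, 252562_s_at, was the brightest member with OsTOP6A3, and it read 38.3 and 28.7 in wild type, 667 and 641 with OsTOP6A3, and 589 and 430.2 with OsTOP6B. That listed for 5 genes, 250433_at, read 51.8 and 37.8 in wild type, 375 and 439 with OsTOP6A3, and 378 and 254 with OsTOP6B. Both had their lowest overexpressor value in OsTOP6B replicate 2. Besides 248943_s_at, a pair of members were listed for 2 genes, of which 262319_s_at read 27.1 and 2.01 in wild type, 398 and 384 with OsTOP6A3, and 394 and 429 with OsTOP6B. The other, 245218_s_at, read 24.9 and 22.98 in wild type, 341 and 350.0 with OsTOP6A3, and 318 and 302 with OsTOP6B.

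Among members with 1 gene, those just inside the limit of 2.5 were AT3G04010 at a ratio of 2.52, AT5G47455 at 2.83, LUL1 at 2.97, AT4G13630 at 3.02 and AT1G23440 at 3.04. Among probe sets with 1 gene that met both level limits and were not set aside by name, those just outside were AT1G33680 at 2.20, the glutathione transferase gene GSTU25 at 2.07, the glycosyltransferase gene UGT71C2 at 1.99, AT1G69730 at 1.89 and AT5G66290 at 1.81. With genes set aside by name left out, 9 probe sets met the level limits and missed the ratio. One of these, 248941_s_at, was listed for 2 genes. It read 53.1 and 54.7 in wild type, 103 and 113 with OsTOP6A3, and 134 and 157 with OsTOP6B.

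Which overexpressor is higher was not fixed by the rule, which asked the same of both. The size of their difference was limited by it, since a probe set low in either line could not become a member. No member was called between OsTOP6A3 and OsTOP6B in limma at an adjusted p under 0.05, and over all 17059 tested probe sets 0% were. All 52 members were among the tested probe sets. The difference, OsTOP6A3 minus OsTOP6B on the log2 scale after quantile normalization and a pseudocount of 16, ran from -0.42 to 0.46 over the members with a median of -0.07, against 0.00 over all tested probe sets. Its size without sign was 0.17 in the median member and 0.13 in the median probe set. In linear intensity the line means were within 1.5-fold of each other in all 52 members, a closeness that the choice of members favours. The 95% interval reached 0.37 to either side in the median member, and it stayed within a 2-fold difference in 50 of 52. These intervals are not adjusted for the number of members, and differences smaller than they span could not be told from 0.

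**Figure D3:**
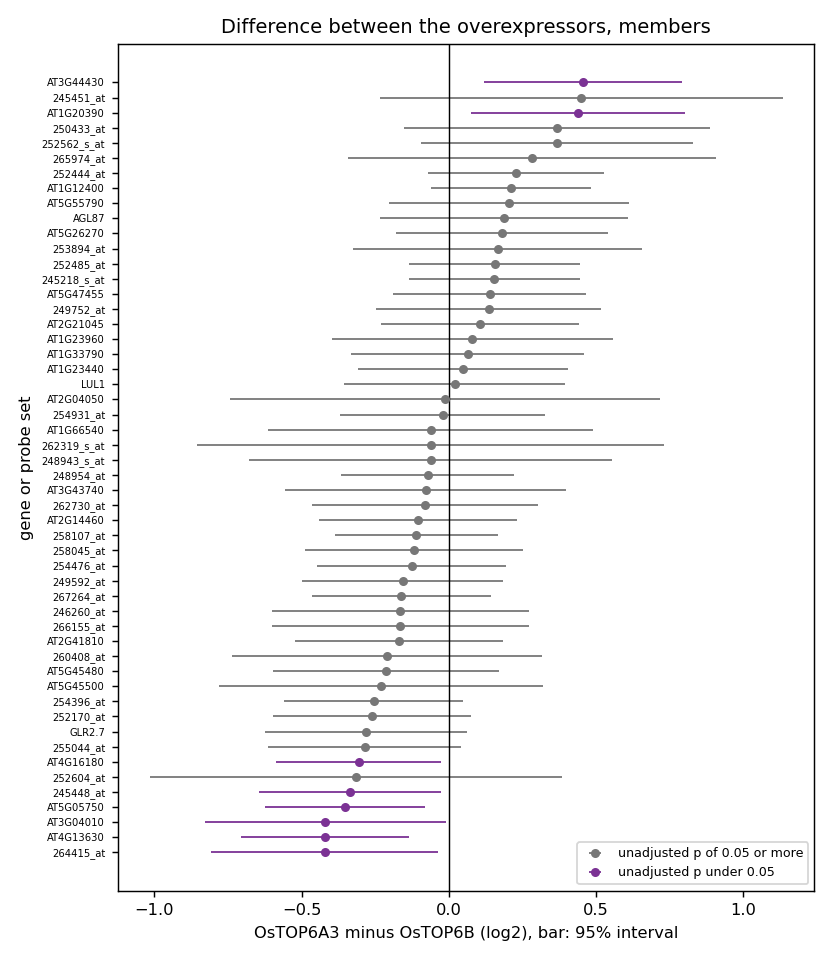
Difference between the overexpressors for each of the 52 members, OsTOP6A3 minus OsTOP6B on a log2 x axis, with 2 arrays per group and bars giving limma's unadjusted 95% interval. Purple marks the 8 members with an unadjusted p under 0.05, none of which passed after adjustment. The values lie between -0.42 and 0.46.

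An unadjusted limma p under 0.05 was found for 8 members, 15.4%, against 7.24% of all tested probe sets. In 6 of them OsTOP6B was higher (3.41% of all probe sets) and in 2 OsTOP6A3 (3.83%). The pseudogene AT1G20390 and AT3G44430 were the 2 higher with OsTOP6A3, by 0.44 ± 0.16 and 0.46 ± 0.14 (n = 2 arrays per group, limma adjusted p of 0.675 and 0.675). Higher with OsTOP6B were AT4G13630 at -0.42 ± 0.12, the DnaJ gene AT5G05750 at -0.35 ± 0.12, AT4G16180 at -0.31 ± 0.12, the glycosyl hydrolase gene AT3G04010 at -0.42 ± 0.18, 264415_at at -0.42 ± 0.17 and 245448_at at -0.34 ± 0.13, with limma adjusted p from 0.675 to 0.677. The member 264415_at read 38.8 and 32.1 in wild type, 119.6 and 138 with OsTOP6A3, and 151 and 209.5 with OsTOP6B. The count of 8 was 2 without OsTOP6A3 replicate 1, 2 without OsTOP6A3 replicate 2, 3 on the deposited scale and 4 with a pseudocount of 1.

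For 4 genes with wide steps from wild type, fixed as markers of the members, the 95% interval of the line difference held 0. The difference was 0.08 ± 0.20 for AT1G23960, with a 95% interval of -0.40 to 0.56. It was -0.08 ± 0.21 for AT3G43740 (-0.56 to 0.40), -0.23 ± 0.24 for AT5G45500 (-0.78 to 0.32) and -0.10 ± 0.15 for AT2G14460 (-0.44 to 0.23). On the scaled intensities the arrays of the lines did not overlap in 23 members, 44.2%, against 37.1% of tested probe sets. OsTOP6A3 was higher in 10 of these and OsTOP6B in 13, with no share by direction over all probe sets to set beside them. Under the same limits of 60, 100 and 2.5, the number of probe sets on in one overexpressor and silent in the other was 0 in each direction among all 22746.

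Genes next to the members were compared with wild type in the limma fit. The rule shaped this set in part, since a neighbour that was itself a member with 1 gene was left out. AT5G45480 and AT5G45500 were therefore not counted as neighbours of each other. Within 5 places to either side of the 24 named members lay 231 other genes, of which 62 had a tested probe set with 1 gene. Of these, 8 were called higher and 4 lower with OsTOP6A3, or 12.9% and 6.45%, where 5.52% and 4.17% of all tested probe sets were. With OsTOP6B, 9 were called higher and 5 lower, or 14.5% and 8.06%, where 7.91% and 6.98% of all were. In both comparisons, which share the wild-type arrays, 7 neighbours were higher and 4 lower, or 11.3% and 6.45%, where 4.83% and 3.20% of all were. The 7 higher ones stood near only 5 of the 22 members with a tested neighbour. Among them AT3G04000 and MYR2 both lay near AT3G04010, and AT5G26260 and AT5G26280 near AT5G26270. The median change of the neighbours was -0.01 and -0.01 on the log2 scale, against -0.02 and -0.02 over all tested probe sets, and 52 of the 62 were called higher in neither comparison. The count of 7 higher in both was 2 without OsTOP6A3 replicate 1, 4 without OsTOP6A3 replicate 2, 4 with a pseudocount of 1 and 4 with no filter on low values.

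**Figure D4:**
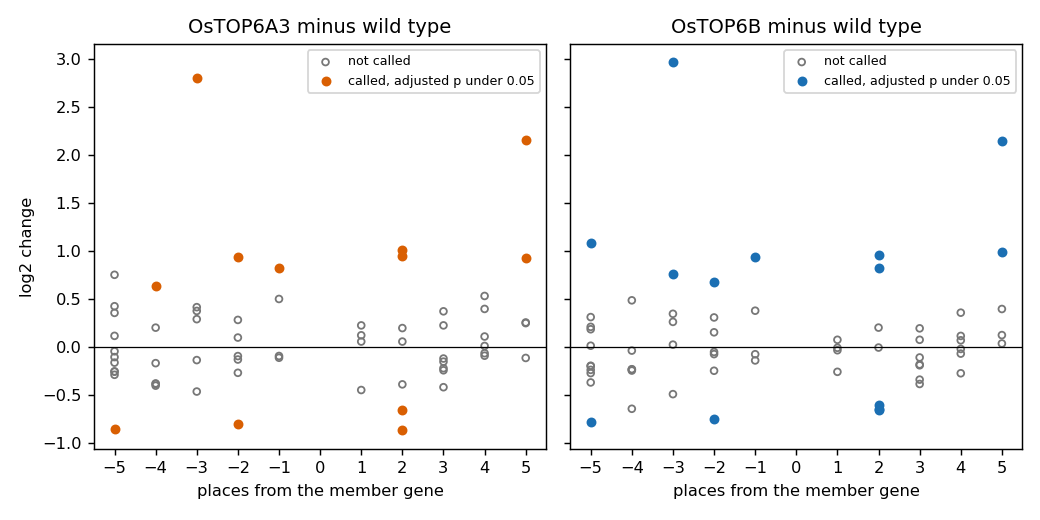
Log2 change from wild type of 62 tested neighbour genes, for OsTOP6A3 on the left and OsTOP6B on the right, by their place in the gene order relative to the member at 0. Filled points were called at an adjusted p under 0.05, and a gene near 2 members appears for each. Most points lie near 0, and AT5G26260 at -3 and MOB1-like at 5 stand highest in both panels.

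The largest neighbour changes stood near AT5G26270 and AT5G45500. AT5G26260, a TRAF-like family gene 3 places from AT5G26270, read 124 and 71.5 in wild type, 951 and 611 with OsTOP6A3, and 941 and 778 with OsTOP6B. The rise was 2.80 ± 0.29 for OsTOP6A3 and 2.97 ± 0.29 for OsTOP6B on the log2 scale (limma adjusted p = 0.00141 and 0.00101, n = 2 arrays per group). On the other side of AT5G26270, 2 places away, AT5G26280 of the same TRAF-like family read 625 and 657 in wild type, 1345 and 1312 with OsTOP6A3, and 1501 and 1070.5 with OsTOP6B. It rose by 1.01 ± 0.21 and 0.96 ± 0.21 (limma adjusted p = 0.0249 and 0.0231). The member between them read 37.5 and 24.2 in wild type, 193 and 196 with OsTOP6A3, and 175 and 164 with OsTOP6B, so all 3 genes stepped up, from wild-type levels that differed widely.

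MOB1-like, named for the Mob1 proteins that activate kinases in cell division, lies 5 places from AT5G45500. It read 100.3 and 93.6 in wild type, 539 and 450.3 with OsTOP6A3, and 427 and 567 with OsTOP6B, a rise of 2.16 ± 0.15 with OsTOP6A3 and 2.15 ± 0.15 with OsTOP6B (limma adjusted p = 0.000274 and 0.000274). This neighbour was not silent in wild type but went up on every overexpressor array. AT1G33750, 5 places from the lectin gene AT1G33790, read 3.21 and 13.5 in wild type, 25.4 and 21.9 with OsTOP6A3, and 37.95 and 30.9 with OsTOP6B. It rose with OsTOP6B by 1.09 ± 0.22 (limma adjusted p = 0.0166), whereas 0.75 ± 0.22 with OsTOP6A3 was not called (adjusted p = 0.0716), and all its intensities stayed under the limit of 60. The other called neighbours changed less than 2-fold.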

How the data were processed

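The members and gene lists were chosen with earlier results of these data known. The authors deposited linear intensities, with 1 value for a probe set on an array. How they summarised probes or scaled arrays is not given in the sources used here. Of 22810 probe sets, 64 controls were left out, and the number of columns not assigned to an array was 0. Members were picked and levels are given as intensities after dividing each array by its median and multiplying by 80. Names came from the platform's probe table and RefSeq names of assembly TAIR10.1, which also gave the gene order. The probe table gave 1 gene for 13513 probe sets.

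For tests, 16 was added, log2 values were quantile normalized, and probe sets under the 25th percentile of the mean were left out, leaving 17059. All 6 arrays were fitted with a mean per group in limma 3.58.1 (R 4.3.3), and p-values were adjusted by Benjamini-Hochberg over all tested probe sets. Errors are limma's standard errors. The number of arrays limits the precision. All 6 values were given for 4 marker genes, the 16 largest ratios and members with an unadjusted p under 0.05 between lines, and for further members of described role. Neighbours were named where called with at least a 2-fold change. Alternatives were other scalings, pseudocounts, filters, limits, windows, a replicate block and leaving out each array.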

Additional observations from a re-analysis of the deposited data

How the results depend on the processing

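The number of members, 52, was 58 on the deposited scale, of which 49 were the same, and 49 after quantile normalization, all of them among the 52. It fell to 33 with an overexpressor limit of 150, and ran from 54 to 63 when each array was left out. Leaving an array out can only loosen the limits of the rule, so that count could not fall below 52. The count of members called between the overexpressors stayed at 0 in all 12 settings. The count at an unadjusted p under 0.05, 8, was 3 on the deposited scale, 4 with a pseudocount of 1, and from 2 to 11 when each array was left out. Neighbours called higher in both comparisons, 7, were 4 with a pseudocount of 1 and 4 with no filter on low values. This count was lower whichever array was left out. Windows of other widths held other numbers of tested probe sets. Within 2 places 4 of 22 were higher in both, or 18.2%, and within 10 places 10 of 118, or 8.47%. Within 5 places it was 7 of 62, or 11.3%, where 4.83% of all tested probe sets were. No pairing by replicate number was seen. The deviations of same-numbered arrays correlated at 0.0155 between OsTOP6A3 and OsTOP6B. With wild type they correlated at 0.00206 for OsTOP6A3 and -0.050 for OsTOP6B. With 2 arrays per group, these values cannot show that the numbers marked nothing shared. With replicate number as a block, the line comparison gave 0 called members and 6 at an unadjusted p under 0.05, and 7 neighbours were higher in both. Of 12 members whose line difference is given, with 144 alternative values, 5 reversed, none of them called. On the deposited scale AT3G43740 became 0.074 and AT2G14460 0.040. With each array left out, AT3G43740 ran from -0.284 to 0.128 and AT2G14460 from -0.257 to 0.0465, positive without OsTOP6A3 replicate 1 and without OsTOP6B replicate 1 for the former and without OsTOP6A3 replicate 2 for the latter. The cause of these shifts was not tested. The smallest limma adjusted p over these alternatives was 0.200. Where wild-type values lie near 0, the ratio of a member has little precision.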

Other observations

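Under the same limits turned round, 21 probe sets were on in both wild-type arrays and low in all 4 overexpressor arrays, against 57 in the direction described above before any were set aside by name. Of these 13 had 1 gene and 8 had none. The direction needs 2 arrays to be high and 4 to be low, where the members need 4 high and 2 low, so the counts are not on equal terms. The ratio of the lowest wild-type to the highest overexpressor value had a median of 4.90, as a description of values chosen for this difference.

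The widest gap among genes was that of AT5G04380, of the SABATH methyltransferase family, which read 325 and 271 in wild type, 8.57 and 0.617 with OsTOP6A3, and 1.39 and 0.725 with OsTOP6B. AT3G48640 read 241 and 322 in wild type, 2.02 and 5.91 with OsTOP6A3, and 10.4 and 8.22 with OsTOP6B, and 248377_at, with no gene named, read 128 and 181 in wild type, 1.76 and 1.94 with OsTOP6A3, and 3.32 and 2.90 with OsTOP6B. AT5G35940, of the jacalin lectin family like the member AT1G33790, read 169 and 136 in wild type, 27.98 and 31.6 with OsTOP6A3, and 20.1 and 15.7 with OsTOP6B. AT1G52000, another jacalin-type lectin gene, read 135 and 102 in wild type, 13.6 and 12.7 with OsTOP6A3, and 12.8 and 21.4 with OsTOP6B. Lectin genes of this type thus appeared in both directions, and these 2 were picked out after their values were seen.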
